A study of Mus musculus with 20 samples.

Results

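Silencing of Tcf7l2 was examined at day 4 of adipocyte differentiation in the 3T3-L1 line, mouse preadipocytes that hormones can turn into lipid-filled adipocytes. Genes were taken if their mean normalised read count over the 4 libraries of that day was at least 10, which kept 15685 of the 33581 genes in the table. The lowest mean kept was 10.01 and the highest left out was 9.999, and 7571 genes with at least 1 read were left out. Both groups carried a lentiviral SMARTvector hairpin introduced at passage 2 and were selected with puromycin as mixed populations. The control group (2 libraries) carried a scrambled hairpin and the knockdown group (2 libraries) a hairpin against Tcf7l2, and a thiazolidinedione, a drug class that activates Pparg, was not routinely part of the differentiation medium. Since the labels give 1 construct per group for these libraries, effects of the hairpin, the vector or the selected population cannot be told apart from loss of Tcf7l2. Since the labels name no separate cultures, p-values measure the spread between these libraries, which may be technical.

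Tcf7l2 is a transcription factor that joins beta-catenin on Wnt target genes, and Wnt signals are known to restrain the step from preadipocyte to adipocyte. That step is driven by C/EBP factors and Pparg, which switch on genes for lipid uptake, storage and hormone secretion. Type I interferons act through their receptor on a complex with Stat2 and Irf9, which binds promoter elements of antiviral genes; many cells express these genes at a low level until they sense viral or misplaced nucleic acid.

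The 4 libraries held 29071003 and 31673355 reads in scrambled cells and 24401253 and 32339452 in knockdown cells, with 20509 to 20878 genes having a read. Levels below are reads scaled to the library total (RPM), given for scrambled libraries 1 and 2 and then knockdown libraries 1 and 2. A change is the knockdown mean minus the scrambled mean on the variance-stabilised log2 scale of the deposited values, which compresses low genes, with its standard error (SE). Adjusted p-values come from limma with Benjamini-Hochberg adjustment over the 15685 genes, and a gene rose or fell where this was under 0.05. The scrambled libraries stood further apart than the knockdown libraries: the SD across genes of the difference within the pair was 0.462 in scrambled and 0.232 in knockdown cells. Summed fibroblast markers stood at 26447 and 18282 RPM in scrambled and at 34234 and 37192 in knockdown libraries. Lymphocyte markers summed to at most 0.482 RPM, epithelial ones to at most 1.45 and endothelial ones to at most 1.08, with Cd3e and Epcam at 0 reads in all 4 libraries. Macrophage markers summed to 35.8 and 55.9 RPM in scrambled and 29.0 and 36.2 in knockdown libraries, with Emr1 (F4/80) at 0 reads.

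Tcf7l2 itself was at 38.5 and 40.5 RPM in scrambled and 12.9 and 12.2 in knockdown libraries. Both knockdown libraries lay below both scrambled ones, and the gene fell by 1.43 (SE 0.19, adjusted p = 0.00136), a call that held in all 28 alternative fits. The related factors were also lower without passing: Lef1 was at 26.8 and 39.5 against 15.3 and 17.1 RPM (-0.88, adjusted p = 0.125) and Tcf7l1 at 267 and 288 against 194 and 195 RPM (-0.51, adjusted p = 0.0664). A fit without day 8 called 2 of these 3 factors lower.

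In all, 227 genes rose (1.45% of those tested) and 32 fell (0.204%), together 1.65%, and the libraries of the groups did not overlap for any of these 259. Since every called gene shows this, non-overlap stated for a called gene is no further support for its call. Of the genes that rose, 171 did so by more than 1 on the log2 scale, and 72 belonged to lists of interferon-related genes. Of those that fell, 17 fell by more than 1. With the replicate number as a block 322 rose (2.05%) and 170 fell (1.08%), and 244 of the 259 calls were kept. The day 4 table alone called 109 genes, 106 higher and 3 lower. Without scrambled library 2, 112 were called higher and 11 lower, without knockdown library 1 146 and 7, without knockdown library 2 104 and 10, and without scrambled library 1 238 and 83.

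**Figure D1:**
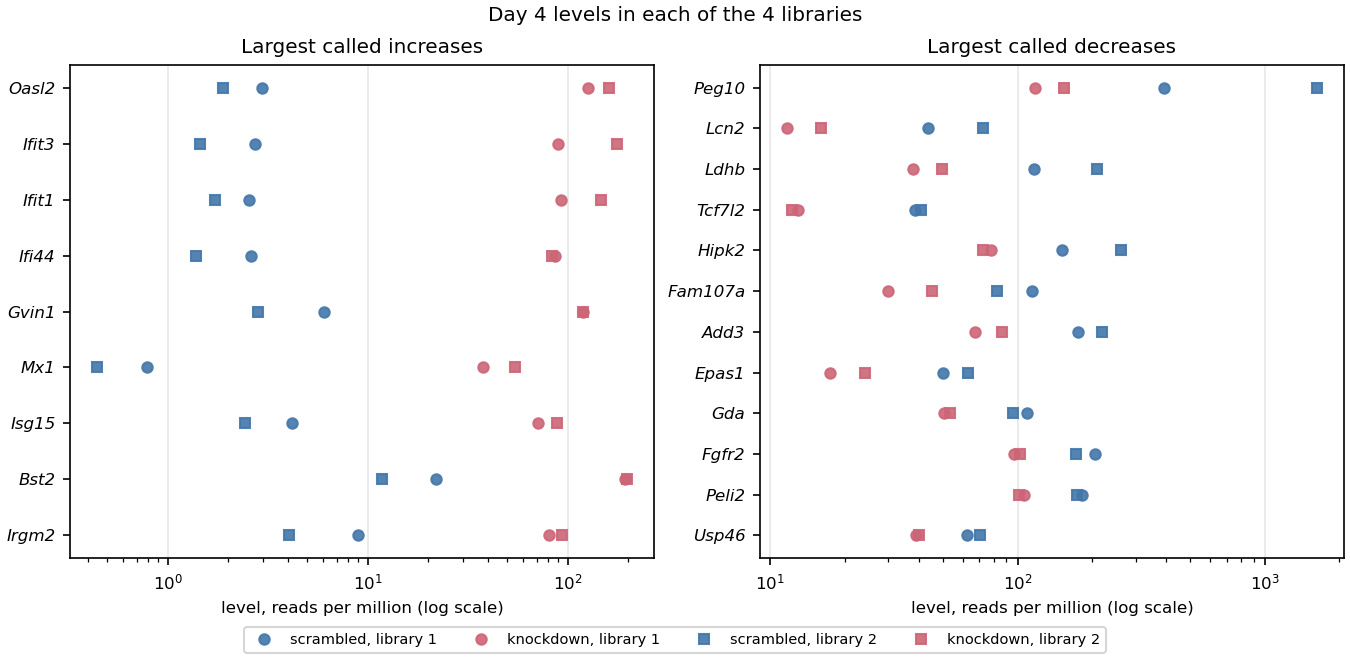
Levels of the named genes with the largest called changes at day 4, in RPM on a log axis, 1 row per gene, with a circle for library 1 and a square for library 2 of each hairpin (scrambled blue, knockdown red). The increases on the left are interferon-stimulated genes that sat below 25 RPM in scrambled libraries; on the right, Peg10 shows the widest gap between its scrambled libraries, 390 and 1629 RPM.

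Over 8 lists of interferon-related genes, 106 members were tested and 72 rose, 0 fell and 34 did not pass; their median change was 1.70, against -0.01 over all tested genes. In 93 of the 106 both knockdown libraries lay above both scrambled ones, which held for 19.6% of all tested genes. This rise was present against either scrambled library, with a median change of 1.64 against library 1 and 1.80 against library 2. Counts of rising members ranged from 42 to 70 when 1 library of day 4 was left out. No interferon ligand passed the filter: Ifnb1, Ifna1, Ifna2, Ifna4, Il28a and Il28b had 0 reads in all 4 libraries, which allows at most 0.0928 to 0.123 RPM in a library at 3 reads. Ifne had 0, 2, 0 and 1 reads and Ifng 1, 0, 1 and 0 reads.

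Among receptors and signalling factors, 5 of 17 rose and 0 fell, with a median change of 0.28. The 5 were Irf7, Usp18, Stat2, Irf9 and Irf1. Stat2, a subunit of the interferon-activated complex, was at 30.9 and 28.2 against 143 and 176 RPM (2.29, SE 0.33, adjusted p = 0.00214). Irf9, which gives that complex its DNA binding, was at 12.4 and 11.0 against 61.8 and 70.8 RPM (2.204, adjusted p = 0.000812). Irf7, a factor that amplifies interferon gene transcription, was at 2.55 and 3.47 against 32.0 and 50.3 RPM (2.84, adjusted p = 0.00121). In these 3 genes both knockdown libraries stood several-fold above both scrambled ones, and the calls held in all 28 alternatives. The receptor chains Ifnar1 and Ifnar2 changed by 0.03 and 0.33 without passing. Irf1 rose by 0.75 (adjusted p = 0.00113), and its call ended in the day 4 table alone (adjusted p = 0.144).

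Of 13 tested nucleic acid sensors and adaptors, 6 rose and 0 fell (median 0.73), and 2 to 7 rose when 1 library of day 4 was left out. Ddx58 (RIG-I), a sensor of viral RNA ends, was at 39.3 and 25.04 against 145 and 161 RPM (2.16, SE 0.32, adjusted p = 0.00218). Dhx58 (LGP2), a regulator of that sensor, was at 4.82 and 2.87 against 36.8 and 43.2 RPM (2.65, adjusted p = 0.00184). Zbp1, which binds left-handed nucleic acid, was at 0.688 and 0.663 against 14.0 and 25.7 RPM (2.76, adjusted p = 0.00384). All of these had non-overlapping libraries, as did Ifih1 (MDA5), a sensor of long double-stranded RNA (1.82, adjusted p = 0.00576). The call of Ifih1 ended without scrambled library 2 (adjusted p = 0.0906) or knockdown library 2 (0.0920), and that of Zbp1 without knockdown library 2 (0.0791). Downstream adaptors Mavs and Ticam1 were at changes of -0.53 and -0.26, neither of them passing.

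Antiviral effectors held the largest changes: 14 of 21 tested rose and 0 fell, with a median of 2.19 (7 to 12 rose when 1 library of day 4 was left out). Oasl2, an oligoadenylate synthetase-like protein, was at 2.96 and 1.89 RPM in scrambled and 127 and 160 in knockdown libraries. Its mean level was 59.2 times higher in knockdown cells, and it rose by 4.75 (SE 0.61, adjusted p = 0.00121). Ifit1, which binds foreign RNA caps, was at 2.55 and 1.74 against 92.3 and 148 RPM (4.56, SE 0.67, adjusted p = 0.00218). Ifit3, its partner protein, was at 2.75 and 1.45 against 89.5 and 176 RPM (4.68, SE 0.74, adjusted p = 0.00368). For each of these genes the lower knockdown library exceeded the higher scrambled one by over an order of magnitude. Mx1, a GTPase that traps viral particles, was at 0.791 and 0.442 against 37.9 and 54.8 RPM (3.93, adjusted p = 0.00194). Bst2 (tetherin), which holds budding virions at the membrane, was at 22.1 and 11.8 against 194 and 199 RPM (3.34, adjusted p = 0.00121), and Oas2, a synthetase that activates RNase L, at 0.310 and 0.0947 against 24.4 and 23.7 RPM (3.46, adjusted p = 0.00117). Calls of Oasl2, Ifit1, Mx1, Bst2 and Oas2 held in all 28 alternatives, while that of Ifit3 ended without scrambled library 2 (adjusted p = 0.0537) or knockdown library 2 (0.0703). The Ifit and Oas families hold near-identical copies, so reads may have been split among them in counting.

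The upstream promoter bases of the genes with the leading changes are shown because interferon-activated factors are known to bind a short element there. The RefSeq table of build GRCm38.p6 gives 250 bases before each start; the letters run 5′ to 3′ on the gene's strand and capitals mark matches, on either strand, to the core of the interferon-stimulated response element, GAAA and GAAA with any 2 bases between.
Ifit3, chr19:34583279-34583528, plus strand: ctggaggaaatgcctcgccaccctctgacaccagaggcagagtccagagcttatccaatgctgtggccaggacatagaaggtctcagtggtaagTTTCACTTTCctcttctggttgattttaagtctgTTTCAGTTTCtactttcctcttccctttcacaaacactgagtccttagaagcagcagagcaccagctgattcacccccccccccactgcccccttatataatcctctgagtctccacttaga
Ifit1, chr19:34640639-34640888, plus strand: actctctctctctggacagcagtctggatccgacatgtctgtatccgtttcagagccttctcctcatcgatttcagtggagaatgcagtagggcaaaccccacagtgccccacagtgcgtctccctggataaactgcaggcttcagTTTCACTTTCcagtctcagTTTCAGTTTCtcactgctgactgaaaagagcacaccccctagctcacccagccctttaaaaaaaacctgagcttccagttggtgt
Oasl2, chr5:114896684-114896933, plus strand: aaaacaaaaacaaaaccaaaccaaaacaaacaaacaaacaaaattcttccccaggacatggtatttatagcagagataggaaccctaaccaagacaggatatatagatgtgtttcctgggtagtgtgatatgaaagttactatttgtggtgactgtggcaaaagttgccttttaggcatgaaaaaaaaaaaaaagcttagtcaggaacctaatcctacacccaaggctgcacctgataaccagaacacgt
Ifi44, chr3:151749911-151750160, minus strand: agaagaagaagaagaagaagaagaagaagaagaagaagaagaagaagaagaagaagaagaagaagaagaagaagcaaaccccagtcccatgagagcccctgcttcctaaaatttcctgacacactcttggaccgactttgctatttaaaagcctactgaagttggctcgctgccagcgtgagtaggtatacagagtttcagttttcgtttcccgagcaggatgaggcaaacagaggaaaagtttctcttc
The promoters of Ifit3 and Ifit1 each held 2 matches, which began 156 and 122 bases before the start in Ifit3 and 104 and 85 in Ifit1. Neither of the other two windows held these letters. Over all 32851 promoters of the table, 3.44% held the core in the 250 bases before and 50 after the start. Of the 106 interferon members tested, 81 had an entry and 31 of these held it; because under 80% of the list had an entry, a comparison of shares is void. CTTTGAT, a core bound by Tcf/Lef factors, was in 1 of those 81 promoters, in 8 of the 134 with an entry among all genes that rose, in 0 of the 27 among genes that fell, and in 3.73% of the table.

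All 6 members of the ISG15 conjugation pathway rose, with a median of 1.84 (2 to 5 when 1 library of day 4 was left out). Isg15, a ubiquitin-like modifier, was at 4.20 and 2.43 against 71.6 and 88.7 RPM (3.71, SE 0.52, adjusted p = 0.00184). Herc6, the ligase that attaches it in mouse cells, was at 8.08 and 5.05 against 39.4 and 46.5 RPM (2.25, adjusted p = 0.00269), and both calls held in all 28 alternatives. The activating enzyme Uba7 rose by 1.23 and the conjugating enzyme Ube2l6 by 1.44, and the protease Usp18, which removes the modifier, by 2.84 (adjusted p = 0.0205). Thus the modifier, its activating, conjugating and ligating enzymes and its protease were all higher in both knockdown libraries. The Ube2l6 call ended without scrambled library 2 (adjusted p = 0.192), knockdown library 1 (0.0570) or knockdown library 2 (0.149), and in the day 4 table alone (0.170). That of Trim25, a ligase with a rise of 1.11, ended without scrambled library 2 (0.0592) or knockdown library 2 (0.0931) and in the day 4 table alone (0.0633).

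Interferon-inducible GTPases, which assemble on the membranes around intracellular pathogens, had the highest median of the lists at 2.95, with 13 of 15 rising and 0 falling (8 to 13 when 1 library of day 4 was left out). Gbp3 was at 3.75 and 2.34 against 48.0 and 55.5 RPM (3.18, SE 0.30, adjusted p = 0.000383). Gbp6 was at 10.9 and 16.1 against 112 and 114 RPM (2.79, adjusted p = 0.000914), and Irgm2 at 8.94 and 4.04 against 81.0 and 93.7 RPM (3.26, adjusted p = 0.00102). Gvin1, a very large GTPase, was at 6.05 and 2.84 against 120 and 119 RPM (4.05, adjusted p = 0.00121). All 15 tested members, including Gbp4 and Gbp9 with rises of 2.56 and 3.13, had both knockdown libraries above both scrambled ones. Gbp and Gvin genes lie in clusters of similar copies, so single-gene levels are uncertain.

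Of 14 tested genes of MHC class I presentation, which shows peptides to T cells, 11 rose and 0 fell (median 1.20; 7 to 11 when 1 library of day 4 was left out). B2m, the invariant light chain, was at 429 and 275 against 1217 and 995 RPM (1.67, SE 0.21, adjusted p = 0.00121), a 3.14-fold higher mean. H2-Q7, a nonclassical heavy chain, was at 25.5 and 27.0 against 88.8 and 101 RPM (1.72, adjusted p = 0.00146). Psmb8 and Psmb10, catalytic subunits of the immunoproteasome, were at 1.75 and 1.01 against 7.38 and 7.73 RPM (1.37) and at 22.98 and 20.5 against 42.4 and 48.0 RPM (0.95). The libraries of the groups were apart for each of them. In the day 4 table alone the calls of B2m, Psmb8 and Psmb10 ended (adjusted p = 0.123, 0.0552 and 0.108). The H2 genes share long stretches of sequence.

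Of 21 other interferon-stimulated genes, 18 rose and 0 fell (median 1.89). Lgals3bp, a secreted galectin-binding protein, was at 129 and 129 against 497 and 484 RPM (1.89, SE 0.18, adjusted p = 0.000383), with the libraries of each group close together. Ifi27l2a was at 1.14 and 1.07 against 21.1 and 27.3 RPM (2.82, adjusted p = 0.000165). Ifi44 was at 2.61 and 1.39 against 86.9 and 83.9 RPM (4.18, adjusted p = 0.00121), Rtp4, a receptor-transporting protein, at 1.44 and 1.99 against 35.7 and 43.8 RPM (3.21), and Xaf1, an apoptosis-linked factor, at 3.54 and 2.18 against 42.0 and 42.6 RPM (2.96). These 5 calls held in all 28 alternatives.

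Among 15 tested chemokines and cytokines, 3 rose and 0 fell (median 0.72), and 6 rose with the replicate block. Ccl7, a monocyte attractant, was at 6.64 and 3.69 against 29.4 and 34.4 RPM (2.10, adjusted p = 0.00836). Cxcl10, an interferon-induced attractant of T cells, was at 0.172 and 0.158 against 5.98 and 9.96 RPM (2.17, adjusted p = 0.0215), and Ccl5 at 0.722 and 0.631 against 2.83 and 3.83 RPM (0.95, adjusted p = 0.00474). Knockdown libraries were the higher ones for each, and the count was 0 to 2 when 1 library of day 4 was left out. Without scrambled library 2 the calls of Ccl7, Cxcl10 and Ccl5 ended (adjusted p = 0.131, 0.162 and 0.0604), as they did without knockdown library 2 (0.109, 0.257 and 0.0920). Those of Ccl7 and Cxcl10 also ended without knockdown library 1 (0.0533 and 0.0688), and that of Cxcl10 without scrambled library 1 (0.0719) and on recovered reads (0.0526). The Ccl5 call ended in the day 4 table alone (0.115). Tnf had 0 reads in all 4 libraries, and Il6, at 7, 6, 11 and 14 reads, did not reach the filter.

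**Figure D2:**
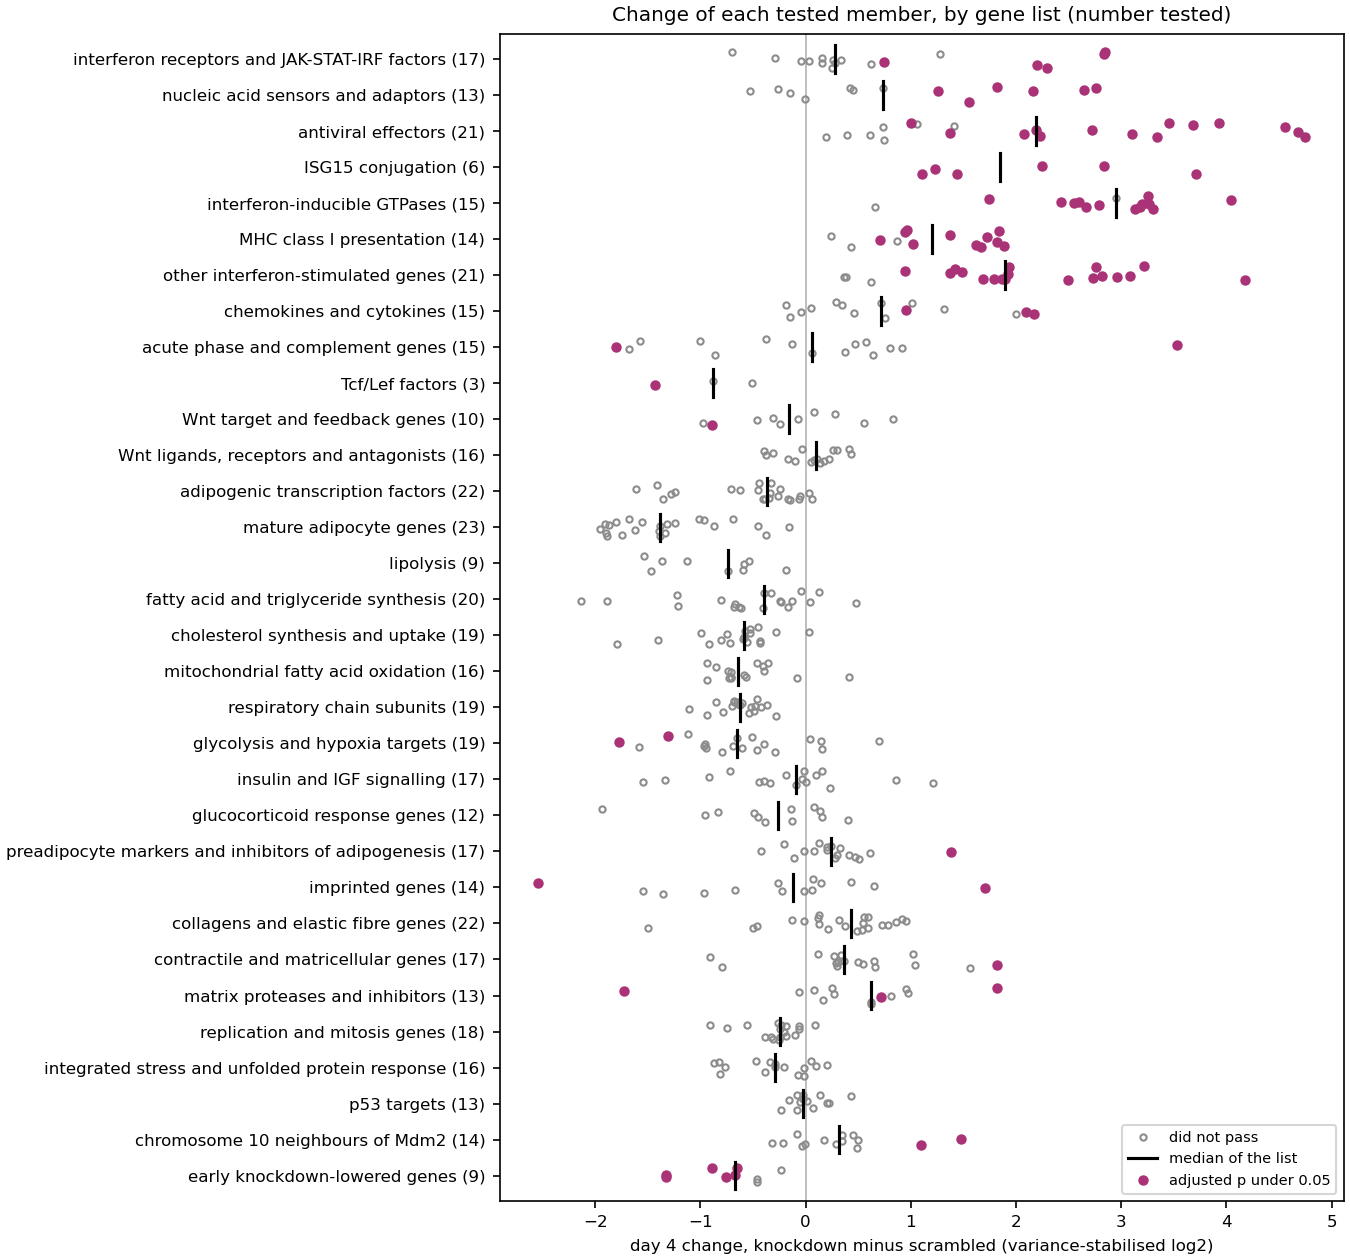
Day 4 change of every tested member of each gene list on the variance-stabilised log2 axis, with filled points for adjusted p under 0.05 (limma), open points for the rest and a black bar for the list's median. The interferon lists at the top spread from -0.70 to 4.75, with 7 of 106 members below 0 and 72 passing, whereas the mature adipocyte list lies wholly below 0 with 0 of 23 passing.

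Of 15 acute phase and complement genes 1 rose and 1 fell, with a median of 0.06. Lcn2, a secreted binder of bacterial iron carriers, was at 43.3 and 72.5 against 11.6 and 16.02 RPM and fell by 1.80 (SE 0.32, adjusted p = 0.00787). Both knockdown libraries lay below both scrambled ones. Its call ended without scrambled library 2 (adjusted p = 0.138), without knockdown library 1 (0.119) and in the day 4 table alone (0.140).

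Genes that fell were fewer, and the largest fall was that of Peg10. Peg10, an imprinted gene derived from a retrotransposon, was at 390 and 1629 against 117 and 153 RPM (-2.54, SE 0.57, adjusted p = 0.0415). Ldhb, a lactate dehydrogenase subunit, was at 117 and 209 against 37.6 and 49.7 RPM (-1.78, adjusted p = 0.0229), and Epas1 (HIF-2 alpha), an oxygen-regulated transcription factor, at 50.0 and 62.8 against 17.5 and 24.1 RPM (-1.31, adjusted p = 0.0288). Hipk2, a nuclear kinase, was at 152 and 262 against 78.2 and 72.8 RPM (-1.36, adjusted p = 0.0492). In each of them both knockdown libraries lay below the lower scrambled library, which the rule that named them required. Without scrambled library 2 the calls of Peg10, Ldhb, Epas1 and Hipk2 ended (adjusted p = 0.496, 0.345, 0.323 and 0.621), as they did without knockdown library 1 (0.338, 0.256, 0.335 and 0.254) or 2 (0.175, 0.0931, 0.0791 and 0.310). In the day 4 table alone they ended too (0.462, 0.196, 0.135 and 0.296). Over the 28 alternatives the Peg10 call ended in 17 and the Hipk2 call in 19, the latter also with the replicate block (0.0566).

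Timp4, an inhibitor of matrix metalloproteases, kept its fall in all 28 alternatives. It was at 21.0 and 17.3 against 4.10 and 3.28 RPM, a 5.20-fold lower mean (-1.73, SE 0.23, adjusted p = 0.00136). Add3, an adducin of the membrane skeleton, was at 175 and 219 against 67.2 and 86.5 RPM (-1.32, SE 0.20, adjusted p = 0.00317). Fam107a, a stress-responsive actin-binding protein, was at 115 and 82.3 against 29.8 and 45.1 RPM (-1.33, adjusted p = 0.0116), and Peli2, a ubiquitin ligase of Toll-like receptor signalling, at 182 and 173 against 106 and 102 RPM (-0.76, adjusted p = 0.00121). The groups were apart in all of these, and the libraries within each group were close for Peli2. Gda (guanine deaminase), Usp46 (a deubiquitinase) and Fgfr2 (a fibroblast growth factor receptor) fell by 0.94, 0.70 and 0.89. The Add3 call ended without scrambled library 2 (adjusted p = 0.0592) or knockdown library 1 (0.0562), and that of Fam107a without scrambled library 1 (0.0800) or knockdown library 1 (0.203). Calls of Gda, Usp46 and Fgfr2 ended without scrambled library 2 (0.156, 0.400 and 0.126), knockdown library 1 (0.284, 0.263 and 0.293) or knockdown library 2 (0.186, 0.204 and 0.189). Those of Gda and Fgfr2 ended without scrambled library 1 too (0.114 and 0.126). Over the 28 alternatives the calls of Gda, Usp46 and Fgfr2 ended in 13, 16 and 11. In the day 4 table alone the calls of Add3, Fam107a, Peli2, Gda, Usp46 and Fgfr2 all ended (0.129, 0.225, 0.177, 0.0994, 0.240 and 0.156).

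A list of 9 genes that earlier results of these data had shown as lowered by the knockdown had 6 falling, 0 rising and a median of -0.67; being chosen on these libraries, it is no independent evidence of direction. Its falling members were Add3, Fam107a, Fgfr2, Peli2, Gpr155 and Mtap9, and 2 or 3 were called when 1 library of day 4 was left out. Mtap9, a microtubule-associated protein, was at 26.8 and 25.7 against 15.8 and 14.6 RPM (-0.67, SE 0.10, adjusted p = 0.00269). Both of its knockdown libraries lay below both scrambled ones, and its call ended without knockdown library 2 (adjusted p = 0.0527) and in the day 4 table alone (0.207).

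Classical Wnt target and feedback genes did not move together. Of 10 tested, 1 fell (Fgfr2), 0 rose and the median was -0.16. Axin2, a feedback inhibitor widely read as a Wnt readout, had 0 and 1 reads in scrambled and 5 and 6 in knockdown libraries and was not tested. Lgr4, an R-spondin receptor, was at 257 and 161 against 155 and 138 RPM (-0.47, adjusted p = 0.385), and Wisp2, a secreted Wnt-induced protein, at 14.4 and 7.89 against 21.0 and 22.4 RPM (0.83, adjusted p = 0.296). The groups did not overlap for these, but the differences did not pass. Of 16 Wnt ligands, receptors and antagonists, 0 rose and 0 fell under limma and with the replicate block (median 0.09); Wnt5a, a noncanonical ligand, was at 54.8 and 40.3 against 68.4 and 61.0 RPM (0.43, adjusted p = 0.470).

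Adipocyte genes were lower in knockdown cells in every tested member of the list, yet 0 of 23 passed. The median change was -1.39, and in 13 of the 23 both knockdown libraries lay below both scrambled ones, against 22.0% of all tested genes. Fabp4, a fatty acid carrier, was at 609 and 2226 against 232 and 472 RPM (-1.81, SE 0.84, adjusted p = 0.484). Adipoq, the hormone adiponectin, was at 282 and 907 against 143 and 258 RPM (-1.39, SE 0.62, adjusted p = 0.465). Cd36, a fatty acid transporter, was at 215 and 706 against 70.4 and 147 RPM (-1.90, adjusted p = 0.374), and Lpl, a lipase of the vessel wall, at 2398 and 6024 against 1360 and 1711 RPM (-1.32, adjusted p = 0.432). In each of these 4 genes scrambled library 2 was the highest by far and scrambled library 1 lay nearer to the knockdown pair. All 23 members were higher in scrambled library 2 than in scrambled library 1 (50.0% of all tested genes were), with a median gap of 1.90. Against scrambled library 1 alone the median change was -0.44, and against library 2 alone -2.48. Such contrasts, here and below, set the mean of both knockdown libraries against 1 scrambled library and so mix library numbers. Within the same library number, Fabp4, Adipoq, Cd36 and Lpl were lower in knockdown cells for library 1 and for library 2. The gap between the knockdown libraries was 0.86. Of the 23 changes, 4 turned above 0 against scrambled library 1 alone. With the replicate block 2 members fell, Cd36 (adjusted p = 0.0144) and Car3 (0.0406). Summed adipocyte markers were 4114 and 12776 RPM in scrambled and 2091 and 3176 in knockdown libraries. In such bulk libraries fewer adipocytes and less RNA per adipocyte cannot be told apart.

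Transcription factors of adipogenesis showed the same arrangement of libraries at smaller size, with 20 of 22 changes below 0, 0 passing and a median of -0.37. Pparg, the master regulator, was at 126 and 331 against 75.5 and 95.3 RPM (-1.24, SE 0.58, adjusted p = 0.486). Cebpa, which sustains Pparg, was at 90.9 and 325 against 44.1 and 88.6 RPM (-1.41, SE 0.71, adjusted p = 0.522), and Nr1h3, the liver X receptor, at 29.4 and 92.6 against 15.1 and 25.4 RPM (-1.28, adjusted p = 0.428). Both knockdown libraries were below both scrambled ones in these 3 genes, and scrambled library 2 was again the highest. Rxra, the partner receptor of Pparg, was more even at 391 and 436 against 289 and 313 RPM (-0.45, adjusted p = 0.315). Ebf2, a committing factor of the lineage, was at 9.80 and 17.6 against 6.11 and 9.12 RPM and was the 1 member that fell with the replicate block (-0.62, adjusted p = 0.0287).

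**Figure D3:**
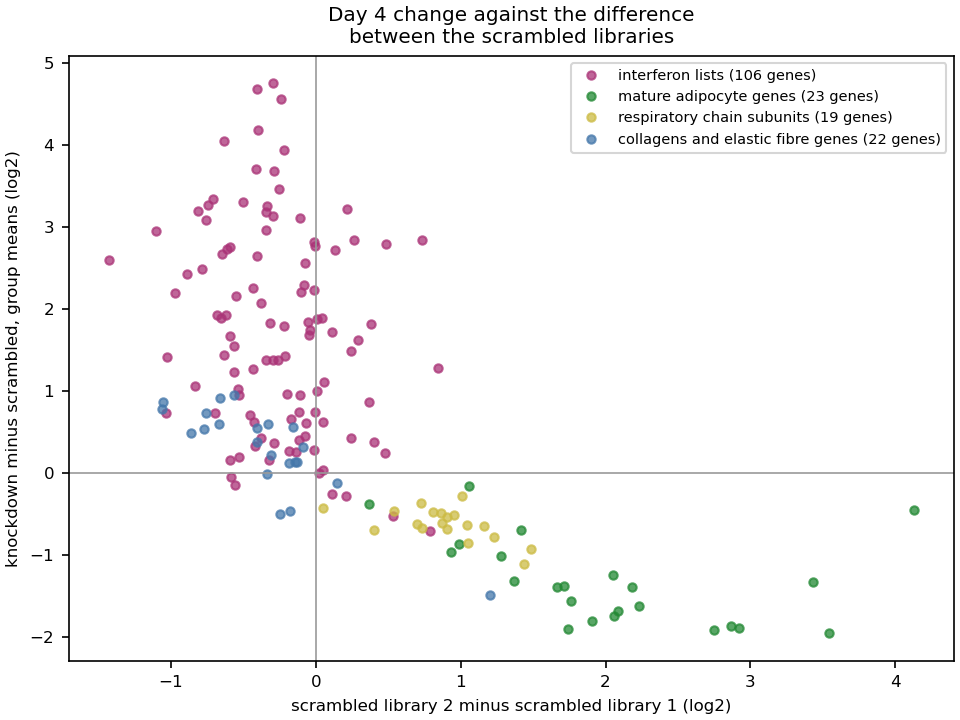
Each point is a gene; the horizontal axis is scrambled library 2 minus scrambled library 1 and the vertical axis the day 4 change, both in variance-stabilised log2. Mature adipocyte genes and respiratory chain subunits lie at the right and below 0, where the scrambled libraries disagree, while interferon genes reach 4.75 on the vertical axis with a median gap of -0.29 between the scrambled libraries. Both axes use the scrambled libraries, so their relation is a description.

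Lipid and energy metabolism lists had negative medians without calls, with a few exceptions. Of 20 genes of fatty acid and triglyceride synthesis 0 passed (median -0.40), and Dgat2, which makes triglyceride, was at 75.6 and 567 against 32.5 and 88.3 RPM (-1.89, adjusted p = 0.537), so knockdown library 2 lay above scrambled library 1. Of 9 lipolysis genes 0 passed (median -0.74); Pnpla2, the first lipase of triglyceride breakdown, was at 433 and 1018 against 170 and 334 RPM (-1.47, adjusted p = 0.454) and fell with the replicate block (0.0103). Of 16 genes of fatty acid oxidation and of 19 respiratory chain genes 0 passed in either list (medians -0.65 and -0.62). The scrambled libraries were apart in these lists as well, with library 2 higher in 15 of the 16 and 19 of the 19, and Ucp2, a mitochondrial carrier in the latter list, fell with the block (adjusted p = 0.0381). Against scrambled library 1 alone the medians were -0.05 for synthesis, -0.04 for lipolysis, -0.19 for oxidation and -0.17 for the respiratory chain, and against library 2 alone they were -0.85, -1.52, -1.10 and -0.99. Each of these medians was thus nearer to 0 against library 1 than against library 2. Counts of 0 in these lists come from limma, which over all genes had 1627 unadjusted p-values under 0.05.

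Among the cholesterol genes, Cyp51 and Insig1 stood closest to the threshold. Of 19 tested, 18 changes were below 0, 0 passed and the median was -0.59; 4 fell with the replicate block. The median was -0.07 against scrambled library 1 alone and -1.16 against library 2 alone, and all 19 members were higher in scrambled library 2. Insig1, which holds sterol-regulated factors in the endoplasmic reticulum, was at 125 and 291 against 42.8 and 64.8 RPM (-1.79, SE 0.46, adjusted p = 0.0895; with the block 0.00497). Cyp51, a demethylase of sterol synthesis, was at 166 and 361 against 74.2 and 111 RPM (-1.40, adjusted p = 0.0837; with the block 0.00280). Acat2 and Mvd, enzymes early in the pathway, changed by -0.99 and -0.92 (adjusted p = 0.278 and 0.415; with the block 0.0174 and 0.0397). For Insig1 and Cyp51 both knockdown libraries were below both scrambled libraries. In glycolysis and hypoxia targets, Ldhb and Epas1 were the 2 of 19 that fell, 0 rose, and the median was -0.65, with 0 to 3 falling when 1 library of day 4 was left out. Against scrambled library 1 alone that median was 0.04 and against library 2 alone -1.24, so its sign rests on scrambled library 2, which was the higher one in 18 of the 19.

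Hsd11b1, which regenerates active glucocorticoid inside cells, was at 40.2 and 153 against 14.1 and 23.2 RPM (-1.94, SE 0.64, adjusted p = 0.241; with the block 0.0339). Of 12 glucocorticoid response genes 0 passed (median -0.26), and 2 fell with the block, Hsd11b1 and Mt1 (0.0374). Fkbp5, a cochaperone of the glucocorticoid receptor, was even within each group at 711 and 708 against 532 and 555 RPM (-0.39, adjusted p = 0.523). In insulin and IGF signalling 0 of 17 passed (median -0.09). With the block Igf2, a growth factor, fell and Igfbp5, a binding protein of it, rose: Igf2 was at 38.3 and 80.5 against 9.14 and 29.4 RPM (-1.55, with the block 0.00392) and Igfbp5 at 10.1 and 5.15 against 22.6 and 19.9 RPM (1.21, with the block 0.00448). Both had groups that did not overlap.

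Of 17 preadipocyte markers and inhibitors of adipogenesis 1 rose and 0 fell (median 0.24). This was Ly6a (Sca-1), a surface marker of progenitor cells that is also known as interferon-inducible, at 23.5 and 21.9 against 52.7 and 79.3 RPM (1.38, SE 0.25, adjusted p = 0.00942). Its call ended without scrambled library 2 (adjusted p = 0.0973), without knockdown library 2 (0.167) and in the day 4 table alone (0.132). Of 14 imprinted genes 1 rose, Ndn, and 1 fell, Peg10 (median -0.12), and 3 fell with the block, the others being Mest (0.0108) and Igf2. Ndn (necdin), a growth-restraining factor that inhibits adipogenesis, was at 49.6 and 34.3 against 137 and 151 RPM (1.71, SE 0.20, adjusted p = 0.000914), 3.42-fold higher on average; in the day 4 table alone its adjusted p was 0.0522. Magel2, an imprinted neighbour of Ndn, had 0 and 0 reads in scrambled and 7 and 25 in knockdown libraries, below the filter.

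Most matrix genes had changes above 0 that did not pass. Of 22 collagens and elastic fibre genes 17 changes were above 0, 0 passed and the median was 0.43 (0.16 against scrambled library 1 alone and 0.60 against library 2 alone). Sparc, a collagen-binding protein, was at 3108 and 1896 against 3825 and 3505 RPM (0.59, adjusted p = 0.372), whereas Col15a1, a basement membrane collagen, was at 134 and 304 against 66.7 and 72.5 RPM (-1.50, adjusted p = 0.301). The groups were apart for both, in opposite directions. Fn1 (fibronectin), picked after its values were seen, rose with the block (0.91, adjusted p = 0.0443). Of 17 contractile and matricellular genes 1 rose and 0 fell (median 0.37): Thbs1 (thrombospondin-1) was at 115 and 51.4 against 355 and 222 RPM (1.82, SE 0.36, adjusted p = 0.0171). With the block Acta2, smooth muscle actin, rose as well (1.04, adjusted p = 0.0435). Of 13 matrix proteases and inhibitors 2 rose, Mmp9 and Mmp11, and 1 fell, Timp4 (median 0.62, and 0.16 against scrambled library 1 alone). Mmp9, a gelatinase, was at 11.9 and 4.74 against 33.2 and 37.9 RPM (1.82, SE 0.34, adjusted p = 0.0116), and Mmp11, a stromelysin, at 28.2 and 18.1 against 41.1 and 37.8 RPM (0.72, adjusted p = 0.0483). Knockdown libraries were the higher ones for the 3 genes that rose. The calls of Thbs1, Mmp9 and Mmp11 ended without scrambled library 2 (adjusted p = 0.261, 0.192 and 0.628) or knockdown library 1 (0.250, 0.0708 and 0.358), and those of Mmp9 and Mmp11 without knockdown library 2 (0.136 and 0.217). All 3 ended in the day 4 table alone (0.355, 0.190 and 0.503), and over the 28 alternatives the Mmp11 call ended in 18.

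On chromosome 10, Nup107 and Yeats4 rose although Mdm2, which lies between them in the RefSeq gene order, did not. Nup107, a scaffold protein of the nuclear pore, was at 62.2 and 63.8 against 204 and 162 RPM (1.47, SE 0.15, adjusted p = 0.000519), a call that held in all 28 alternatives. Yeats4, a reader of acetylated histones, was at 52.4 and 49.9 against 122 and 106 RPM (1.096, SE 0.14, adjusted p = 0.00121; 0.0640 in the day 4 table alone). Mdm2, the ubiquitin ligase of p53, was at 3040 and 3145 against 3109 and 2758 RPM (-0.08, adjusted p = 0.898). Of 14 tested genes of this neighbourhood 2 rose, 0 fell and the median was 0.31; Rap1b and Cpsf6 changed by 0.49 and 0.50 (adjusted p = 0.0765 and 0.181), and Cpsf6 rose with the block (0.0377). Of 13 p53 targets 0 passed under limma or with the block (median -0.02). Of 18 replication and mitosis genes 0 passed (median -0.25), and with the block Ccne1, a cyclin of S-phase entry, and Tk1, thymidine kinase, fell (-0.91 and -0.56, adjusted p = 0.00831 and 0.0401). Of 16 genes of the integrated stress and unfolded protein responses 0 passed under limma or with the block (median -0.29). That median was 0.31 against scrambled library 1 alone and -0.91 against library 2 alone, and all 16 members were higher in scrambled library 2, so its sign rests on that library.

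The day 4 effect was set against the effects of the neighbouring days in the same fit. For the difference from day 2, 0 of 15685 genes passed (0.0%) under limma and on recovered reads, 1 passed with the replicate block, Lcn2 (adjusted p = 0.0311), and 230 had an unadjusted p under 0.05 (1.47%). For day 6 minus day 4, 0 passed (0.0%) under limma, with the block and on recovered reads, and 206 had an unadjusted p under 0.05 (1.31%). Without the block 5 genes shared the lowest adjusted p (0.611), among them the interferon gene Ifi27l2a (day 4 minus day 2 of 1.61) and Lcn2. The effect on Lcn2 was 0.06, 0.54, -1.80, -2.46 and -0.10 at days 0 to 8. Its levels at day 2 were 106 and 155 RPM in scrambled and 165 and 214 in knockdown libraries, so the order of the groups turned between the days, and by day 8 all 4 libraries lay between 3.07 and 4.07 RPM. These levels are set side by side across tables that were normalised separately.

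The effect was larger at day 4 than at day 2 for 95 of the 106 tested interferon-related genes. Among the 72 that rose it was larger for 71, the exception being Irf1. Since the 72 were picked by their call at day 4, their count is no evidence of a larger effect at that day. The same count over all tested genes was not taken. None of the day 4 minus day 2 differences of these genes passed without the replicate block or with it. The effect on Ifit1 was 2.76, 1.94, 4.56, 3.66 and 3.51 at days 0 to 8, and day 4 minus day 2 was 2.62 (SE 0.94). Each day was transformed separately, and 0 reads stood at 6.94 on the log2 scale of day 2 and at 5.74 on that of day 4. Low genes were thus compressed more at day 2, so part of such a difference can come from the scale. For Isg15 the effect was 2.11, 1.29, 3.71, 3.34 and 2.82, and for Irf7 1.42, 1.09, 2.84, 2.41 and 1.93. Scrambled libraries held 6.65 and 21.0 RPM of Ifit1 at day 0, 0.902 and 1.85 at day 2, 2.55 and 1.74 at day 4, 15.998 and 5.06 at day 6 and 25.02 and 4.56 at day 8. Knockdown libraries held 58.1 and 200 RPM at day 0, 16.5 and 25.1 at day 2, 92.3 and 148 at day 4, 156 and 152 at day 6 and 111 and 221 at day 8. Knockdown libraries were thus the higher ones at each of the 5 days, and both arms had their lowest mean at day 2. The effect on Add3 (-1.60, -1.21, -1.32, -1.03 and -1.21) was of similar size at all days. That on Nup107 was 0.66, 1.18, 1.47, 1.74 and 1.87, and that on Timp4 -1.05, -0.25, -1.73, -2.42 and -2.80.

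**Figure D4:**
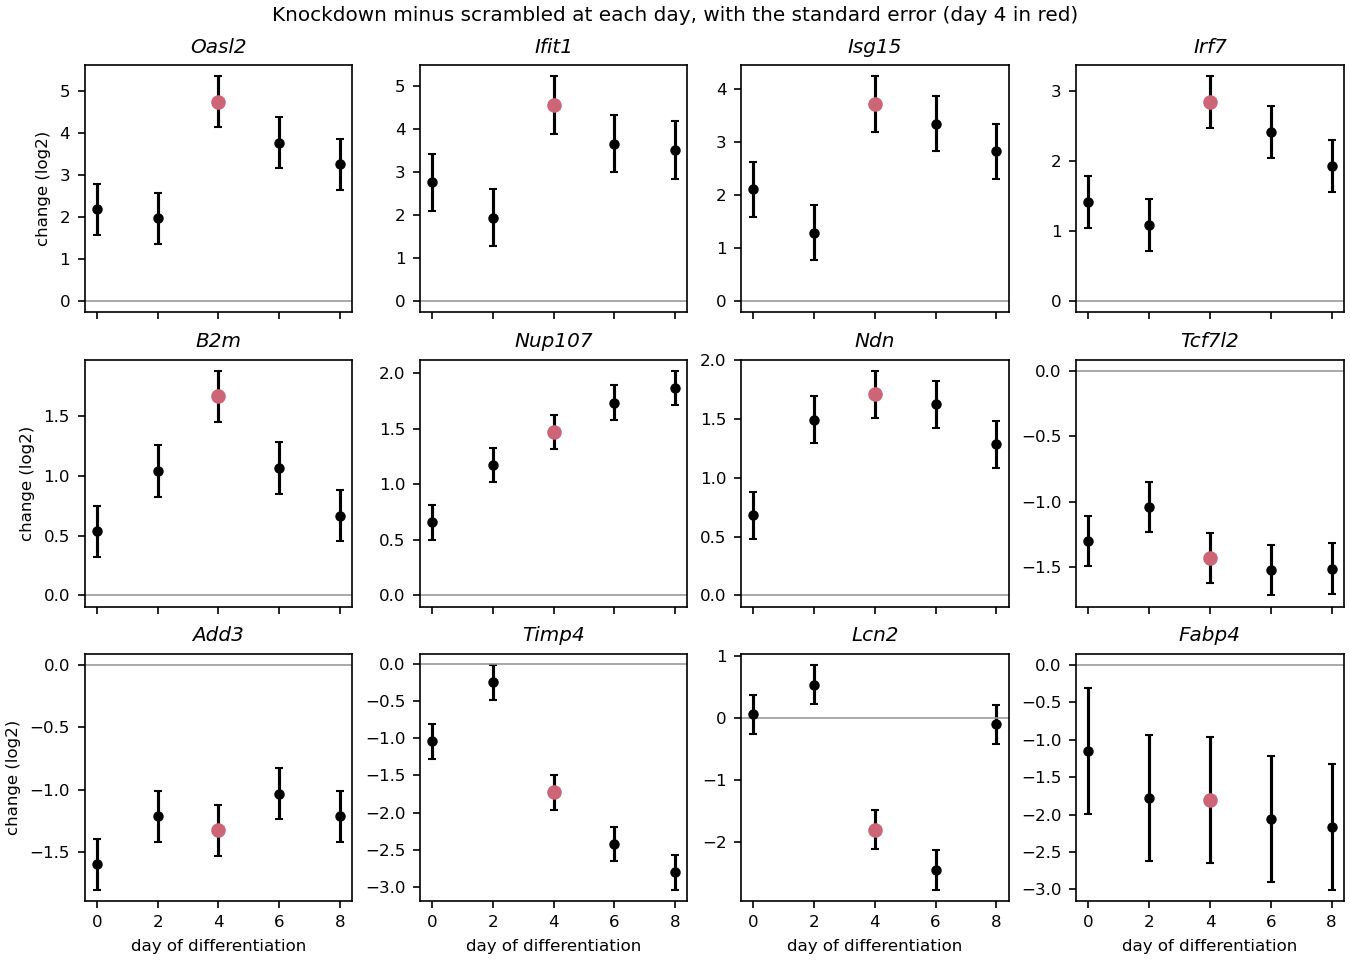
Effect of the knockdown (knockdown minus scrambled, variance-stabilised log2) against day of differentiation for 12 genes, with the standard error of the fit as bars and day 4 in red; the vertical axes differ. Ifit1 goes from 1.94 at day 2 to 4.56 at day 4, Add3 stays between -1.60 and -1.03, and Lcn2 is at -1.80 and -2.46 at days 4 and 6 and near or above 0 at the others. Low genes are compressed most at day 2, so effects of different days are not on equal scales. Without the replicate block, 0 genes passed the test of the difference between day 4 and day 2 or day 6.

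In the authors' deposited table for day 4, 276 of 16097 genes with an adjusted p-value were higher at 0.05 (1.71%) and 131 lower (0.814%). Of the 259 genes called here, 233 were also called in the authors' deposited table, and all 259 had the same sign there. Its calls included 74 of the 106 interferon-related genes, all higher, and 3 of the 23 mature adipocyte genes, all lower. Some genes that did not pass here were called there. Lower were Insig1 (DESeq2 adjusted p = 0.00057), Hsd11b1 (0.0019), Col15a1 (0.0025), Cyp51 (0.0145) and Lef1 (0.0342), and Igfbp5 was higher (0.0060). Cd36, Lpl and Pnpla2 were also called lower there (0.0096, 0.0320 and 0.0474). Pparg, Adipoq and Fabp4 did not pass in that test either (0.0558, 0.0909 and 0.503).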

How the data were processed

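RNA-seq of 20 libraries was read from 5 deposited tables, 1 per day with 33581 genes each. Per the submitters' processing notes, the authors used TopHat2 2.0.13, Bowtie2 2.2.3.0, SAMtools and DESeq2 1.10.1 with build mm9. Which tool counted reads, and over which annotation, is not given in the sources used here. Libraries came from an unstranded TruSeq kit, so reads of a gene and its antisense partner cannot be told apart.

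The authors deposited variance-stabilised log2 values per library, made separately for each table. Also deposited were, for each gene, a mean signal (the normalised count averaged over libraries), the log2 fold change and its error, a test score, and raw and adjusted p-values. All per-library columns were used (0 unused). The transformation was inverted to recover reads, and 100% of values up to 100 reads lay within 0.02 reads of a whole number.

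The design foresaw limma for log2 values. limma 3.58.1 (under R 4.3.3 with statmod 1.5.0) was run with trend and robust estimation on all 20 libraries in 10 groups, with 10 residual degrees of freedom, so the day 4 groups borrowed their spread from other days. Genes with a day 4 mean normalised count of at least 10 entered, and Benjamini-Hochberg adjusted p was called at 0.05. In simulated data with 15685 genes, 25.4% of 1.5-fold, 64.2% of 2-fold and 93.9% of 4-fold changes were recovered, with 2 unchanged genes called. The simulated libraries were independent, and each gene had the typical spread of its level. They held no deviation shared by library number and no wider scrambled group. These rates therefore need not hold for the real libraries, least of all for genes that differ between the scrambled libraries. Totals of 24401253 to 32339452 reads set the precision of low genes.

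Same-numbered libraries deviated together (correlations of 0.79, 0.71, 0.56, 0.55 and 0.48 at days 0 to 8). The numbers were therefore taken as pairs in an alternative fit, the replicate block. The data alone give this pairing, as no label ties the numbers to a culture. Values are reported without the block unless stated. Without it the shared deviation stays in the spread, and 32 genes fell, against 170 with it. Not passing without the block is thus no sign that a gene was unchanged. Library pairs within each group were checked for copies. Their Spearman correlations ran from 0.960 to 0.993, and none was a copy. Pairs from different groups were not part of this check.

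Members, lists and the naming rule were chosen with earlier results of these data known. The rule named the 12 largest called changes per direction among genes above the median level with non-overlapping groups, up to 4 members per list by smallest adjusted p, and 9 fixed genes (Ifnb1, Hsd11b1, Tcf7l2, Lef1, Axin2, Fabp4, Adipoq, Cebpa and Pparg). Predicted genes were counted but not named, a few members of the lists and of the rule are not reported here by name, and other genes named were picked after their values were seen. Lists were described by counts and medians.

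Alternatives were no filter, a filter at 50, the day 4 table alone, no day 8, the replicate block, no trend or robust estimation, median centring, recovered reads (limma voom), leaving out each library, and a stricter promoter motif (the element's core followed by CT). List counts without day 8 or without a day 4 library were added after the data were seen. Promoter motifs were searched on both strands of the RefSeq table (GRCm38.p6), matched by gene ID or symbol for 9260 of 15685 genes. No coordinates of build mm9 are used.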

Additional observations from a re-analysis of the deposited data

How the results depend on the processing

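The 259 calls became 109 in the day 4 table alone and 492 with the replicate block, and 114 to 370 when 1 library was left out; without day 8, 319 were called, and 261 without trend and robust estimation. The block called 1 gene (Lcn2) for day 4 minus day 2 against 0, and it ended 1 call among the genes named by the rule, that of Hipk2. With it, counts became 6 for chemokines (rising), 2 for acute phase genes (falling), 1 for adipogenic factors, 2 for mature adipocyte genes, 1 for lipolysis, 4 for cholesterol genes, 1 for respiratory chain genes, 1 and 1 for insulin and IGF genes (rising and falling), 2 for glucocorticoid genes, 3 for imprinted genes (falling), 1 for collagens (rising), 2 for contractile genes (rising) and 2 for replication genes (falling). Without day 8, counts became 2 and 2 for acute phase genes (rising and falling), 2 for Tcf/Lef factors, 1 for cholesterol genes, 0 for imprinted genes (falling) and 1 for proteases (rising).

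When 1 library of day 4 was left out, rising members numbered 42 to 70 over the interferon lists, 2 to 7 for sensors, 7 to 12 for antiviral effectors, 2 to 5 for ISG15 conjugation, 8 to 13 for GTPases and 7 to 11 for MHC class I. Rising members also numbered 0 to 2 for chemokines, 0 to 1 for acute phase genes, 0 to 1 for preadipocyte genes, 0 to 1 for contractile genes and 0 to 2 for proteases. Falling members numbered 0 to 1 for acute phase genes, 0 to 0 for Wnt targets, 0 to 1 for fatty acid synthesis, 0 to 2 for cholesterol genes, 0 to 3 for glycolysis and hypoxia targets, 0 to 2 for glucocorticoid genes, 0 to 1 for preadipocyte genes, 0 to 1 for imprinted genes and 2 to 3 for the early-lowered genes. Of 487 list members, 75 turned sign against scrambled library 1 alone and 31 against library 2 alone, none of them among the 95 called. The libraries of the groups did not overlap for any called gene, so the lack of turns among the 95 follows from that and is no further support. List medians turned sign against library 1 alone for glycolysis and hypoxia targets (0.04), stress responses (0.31), acute phase genes (-0.07) and Wnt ligands, receptors and antagonists (-0.02), and against library 2 alone for p53 targets (0.17). Among genes named by the rule, changes turned sign without scrambled library 2 for Elovl3 (0.0252), Fas (-0.1288) and Ccng1 (-0.1198), none of them called; over single libraries left out their changes ranged from -1.259 to 0.0252, -0.1288 to 0.9866 and -0.1198 to 0.5189. The stricter motif was in 16.05% of interferon promoters with an entry and 0.454% of tested ones, shares that cannot be compared because too few genes had an entry. The cause of these differences was not tested. In fits that leave a group of day 4 with 1 library, that library is assumed to vary like the other groups. Median centring removed a knockdown minus scrambled offset of -0.02 from the changes and called 248. With 2 libraries per group, changes of genes that differ between the scrambled libraries were not resolved.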

Other observations

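Among the 155 genes that rose outside the interferon lists, several belong to families of immune genes, picked here after their values were seen. Ddx60, a helicase linked to RNA sensing, was at 1.31 and 0.474 RPM in scrambled and 23.2 and 28.3 in knockdown libraries (3.04, limma adjusted p = 0.00317). Gbp10, a further guanylate-binding protein, was at 7.81 and 11.9 against 80.6 and 84.6 RPM (2.72, adjusted p = 0.00121), and H2-T10, a nonclassical MHC gene, at 26.4 and 22.8 against 63.9 and 71.2 RPM (1.34, adjusted p = 0.000387). Cd74, the invariant chain of MHC class II, was at 0.585 and 0.789 against 8.97 and 6.28 RPM (1.70, adjusted p = 0.00198). In each of them both knockdown libraries lay above both scrambled ones.

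Others have roles outside immunity and were likewise picked after their values were seen. Agtr2, an angiotensin receptor, was at 6.95 and 6.76 against 46.1 and 40.6 RPM (2.2005, SE 0.41, adjusted p = 0.0129), and Npy1r, a neuropeptide Y receptor, at 3.89 and 2.37 against 19.1 and 18.99 RPM (1.87, adjusted p = 0.00211). Dmd, which encodes dystrophin, was at 0.654 and 0.947 against 10.1 and 6.99 RPM (1.76, adjusted p = 0.00121). Dpt (dermatopontin) and Ecm1, matrix proteins, rose by 1.76 and 1.60 (adjusted p = 0.0402 and 0.00570). Among genes that fell, Fgfr3, a fibroblast growth factor receptor like Fgfr2, was at 32.9 and 21.1 against 7.87 and 7.98 RPM (-1.41, SE 0.31, adjusted p = 0.0391). Gdf10, a growth factor of the TGF-beta family, was at 3.34 and 2.68 against 0.205 and 0.0309 RPM (-1.41, adjusted p = 0.0338), and Prkaa1, a catalytic subunit of AMP-activated kinase, at 96.7 and 102 against 69.1 and 62.1 RPM (-0.58, adjusted p = 0.0433). The groups did not overlap for these 3 genes either.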
